A study of Mus musculus with 12 samples.

Results

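The results below describe 8 genes of the mTOR and PI3K growth pathway (Mtor, Rptor, Rictor, Tsc1, Tsc2, Akt1, Rheb and Rps6kb1) in ribosome-associated RNA of cultured sensory neurons. The members were taken by symbol from the deposited count tables, where all 8 were found among the 9112 genes that both tables list, and all 8 had a mean FPKM above 1. They were chosen by their place in the pathway and not by a threshold on a measured value, but with earlier results of these libraries known. Neurons from the dorsal root ganglia (DRG) of adult male RiboTag mice were purified on a 20% Percoll cushion and cultured for 24 h. RiboTag mice carry a Cre-dependent HA tag on the ribosomal protein Rpl22, so that an anti-HA antibody pulls down tagged ribosomes with the RNA bound to them. All mice were Rpl22HA/HA, and they were labelled either Runx3-Cre+, where Cre is expressed from Runx3, a gene of proprioceptive neurons, or Runx3-Cre-, which carry no Cre and serve as the background of the pull-down. Each sample pooled the cultures of 5 mice, and each genotype has 3 pull-down and 3 input libraries, the input being 10% of the lysate. The age of the mice is 3 to 6 months in the labels and 8 to 12 weeks in the methods. The pull-down was compared with the input within each genotype.

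The pathway couples growth factors and nutrients to protein synthesis. A growth factor receptor recruits phosphoinositide 3-kinase (PI3K), whose lipid product activates the kinase Akt. Akt inhibits the TSC complex, which otherwise keeps the small GTPase Rheb inactive, and active Rheb switches on the mTOR kinase in mTOR complex 1 (mTORC1). mTORC1 then phosphorylates the S6 kinases and the 4E-BP repressors of cap-dependent translation. The same kinase in mTORC2 phosphorylates Akt. In sensory neurons the pathway is studied for its control of translation in growing and injured axons.

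The libraries held between 8886308 and 18633365 counts on listed genes. The members had between 55 counts (Rheb in Cre+ pull-down 1) and 3301 counts per library. As the reads carry no stated molecular identifiers, an interval from counts covers counting error only. Expression is given as normalized counts, which are counts per 1000000 after TMM scaling over the 12 libraries. The log2 fold change of pull-down over input is called enrichment, also where it is negative, and is given with its standard error (SE) from edgeR's quasi-likelihood fit and with its Benjamini-Hochberg adjusted p (FDR). The pull-downs labelled Cre+ varied most: the mean absolute log2 deviation of a library from the mean of the other libraries of its group was 0.82 to 1.18 over all genes in the Cre+ pull-downs and 0.28 to 0.54 in the other 9 libraries. Cre+ pull-down 1 stood farthest apart, with 46.9% of all genes and 5 of the 8 members more than 2-fold away from the other Cre+ pull-downs. Normalized counts of Runx3 itself were 2.19 to 23.3 in pull-downs labelled Cre+, 20.1 to 49.9 in pull-downs labelled Cre- and 1.86 to 5.73 in the inputs, and the summed level of the 5 proprioceptor markers in both tables, Runx3 among them, was 371 to 540 in the Cre+ pull-downs and 1158 to 1438 in the Cre- pull-downs. Etv1 and Spp1 were lower in every pull-down labelled Cre+ than in every one labelled Cre-, while the ranges of Runx3, Whrn and Ntrk3 overlapped. None of these 5 genes was thus set apart in the direction of the labels, and genotypes are named below only as the libraries are labelled. Whether the labels of the genotypes were exchanged was not tested; if they were, every difference of Cre+ minus Cre- below would have the opposite sign, and the pull-downs labelled Cre+ would be the background. The 10 pan-neuronal markers summed to 47547 to 54517 in the Cre- pull-downs against 23824 to 28711 in the Cre- inputs, and to 22988 to 25612 against 21543 to 28555 in the libraries labelled Cre+, where the ranges overlap. Most of these sums came from Snap25, Nefl and Nefm, and single markers went both ways. Their enrichments were -0.76 to 1.35 (median 0.52) for Cre- and -1.85 to 0.56 (median -0.08) for Cre+. Of 10 glial markers, the 7 in both tables summed to 1902 to 2851 in the Cre+ pull-downs against 3007 to 4167 in the Cre+ inputs, and to 1595 to 1969 against 3208 to 4595 in the libraries labelled Cre-. Single glial markers also went both ways, with enrichments of -3.09 to 0.69 (median -1.31) over the 9 tested for Cre-. For Cre+ they were -0.99 to 0.22 (median -0.51) over the 7 tested. Of 4 endothelial markers, 3 were in both tables (Cldn5 was in neither), and they summed to 105 to 461 in the Cre+ pull-downs against 44.8 to 77.3 in the Cre+ inputs, and to 13.1 to 109.6 against 59.4 to 74.5 in the libraries labelled Cre-. The part of these differences in the values below was not tested, and in such bulk RNA fewer cells of a type and less RNA per cell cannot be told apart.

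**Figure D1:**
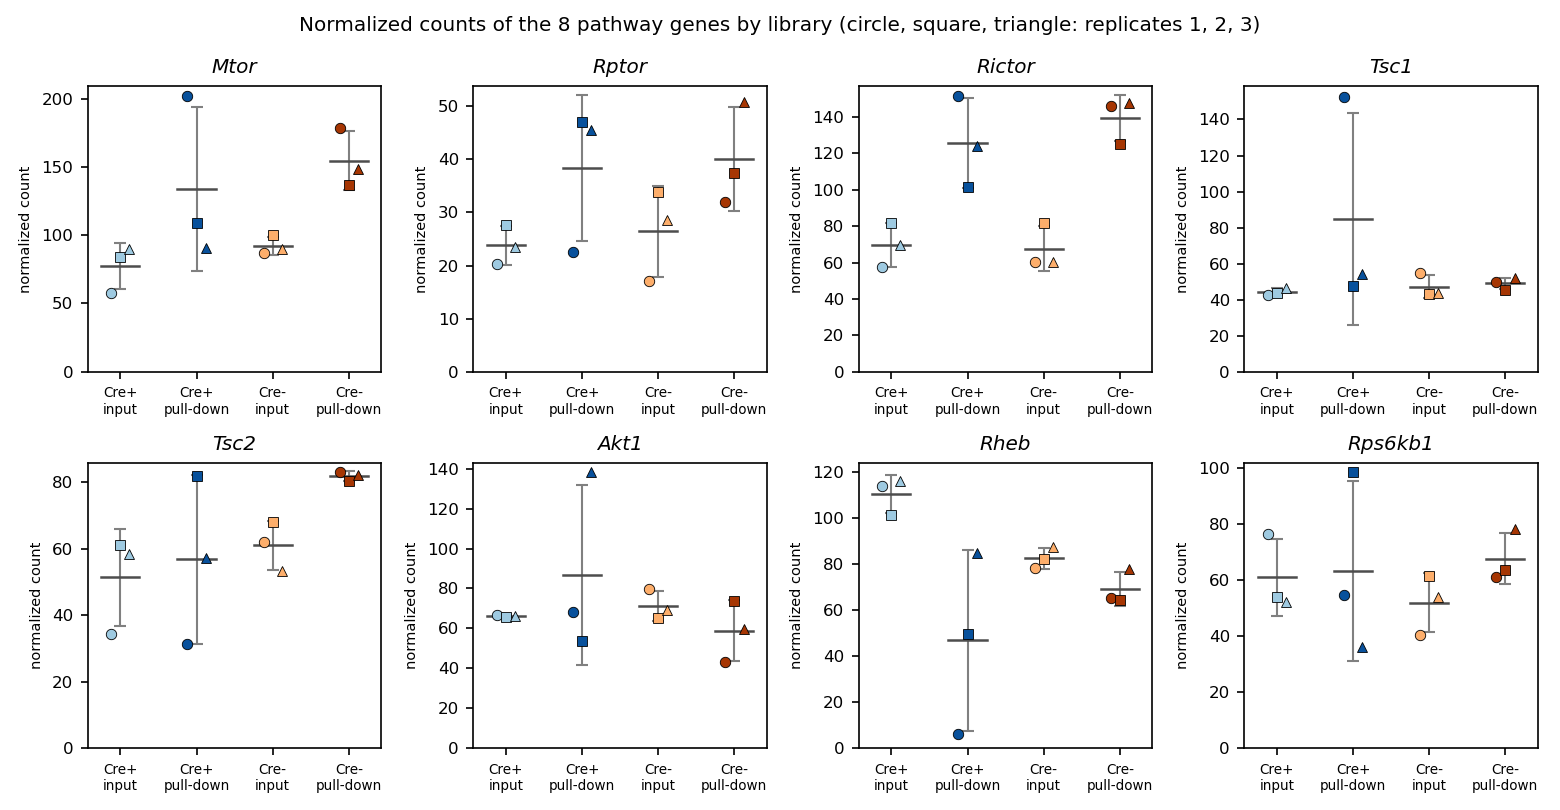
Normalized counts (vertical axis, counts per 1000000 after TMM scaling) of the 8 members in the 12 libraries, by group (horizontal axis). Each point is 1 library, the horizontal line the mean and the bar the SD (n = 3). Rictor shows both pull-down groups above both input groups. The Cre+ pull-downs of Mtor, Tsc1 and Akt1 hold 1 library far from the others, and those of Rheb spread widely.

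The first comparison asks which members were more abundant in the pull-down than in the total RNA of the cultures. Of the 8 members, 1 was called in the libraries labelled Cre- (Rictor, higher in the pull-down), and Mtor passed the FDR threshold with a change under 2-fold. None of the 8 was called in the libraries labelled Cre+, 1 (Rictor) had an unadjusted p below 0.05, and DESeq2 and edgeR's exact test called none either. A gene was called when its FDR, adjusted over all genes tested, was below 0.1 and its change at least 2-fold. Of all genes tested, 12.0% were called for Cre- and 7.67% for Cre+. The FDR threshold alone was passed by 24.0% of all genes for Cre-, against 2 of 8 members, and by 7.98% for Cre+, against 0 of 8. The share of members called is therefore near the background, and it is not a result about the pathway as a whole.

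Mtor, the kinase of both complexes, is on chromosome 4 of GRCm38 from 148448611 to 148557683 on the forward strand. It had 179, 137 and 148 normalized counts in the Cre- pull-downs and 86.6, 99.8 and 90.0 in the Cre- inputs. The groups did not overlap, and the lowest pull-down was well above the highest input. Pull-downs averaged 155 ± 21.6 (SD, n = 3) and inputs 92.1 ± 6.88, an enrichment of 0.77 (SE 0.17, FDR 0.0110, and 0.223 when all 12 libraries shared 1 fit). The Cre+ pull-downs had 202, 109 and 90.6 and the Cre+ inputs 57.9, 84.0 and 89.8. Here too every pull-down was above every input, but the lowest pull-down and the highest input were less than 1 normalized count apart. The Cre+ enrichment of 0.79 (SE 0.40, FDR 0.266) was close in size to the Cre- value and less precise, and with all 12 libraries in 1 fit its FDR was 0.0750 (SE 0.30). Without Cre+ pull-down 1 the Cre+ value was 0.39.

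Rictor, the subunit that defines mTORC2, is on chromosome 15 from 6708379 to 6800401 on the forward strand. The Cre- pull-downs had 146, 125 and 148 normalized counts and the Cre- inputs 60.6, 81.8 and 60.2. All pull-downs lay above all inputs. Pull-downs averaged 139.6 ± 12.6 and inputs 67.5 ± 12.3, an enrichment of 1.07 (SE 0.19, FDR 0.00317), which is 2.10-fold. The call rests on the 2-fold limit: without Cre- input 1 it was 0.998 (FDR 0.0154) and without Cre- input 3 it was 0.99 (FDR 0.0231), both just under 1, and scaling by library size alone gave 0.84 (FDR 0.0113). With Cre+, the pull-downs had 151, 102 and 124 and the inputs 57.5, 81.7 and 69.9, again without overlap. Here pull-downs averaged 126 ± 24.8 and inputs 69.7 ± 12.1, and the enrichment of 0.85 (SE 0.34, 95% interval 0.08 to 1.62) had an FDR of 0.174. It passed the FDR threshold, still under 2-fold, with DESeq2 (0.92, FDR 0.0803) and with all 12 libraries in 1 fit (0.85, FDR 0.0297).

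Rptor, the subunit that defines mTORC1, is on chromosome 11 from 119602905 to 119899576 on the forward strand, and 0.6% of its exonic bases lie under an antisense gene, which matters because no source says that counting was strand-specific. Per kb it was the lowest member in all 4 groups. It had 32.0, 37.3 and 50.9 normalized counts in the Cre- pull-downs and 17.0, 33.8 and 28.5 in the Cre- inputs. The lowest pull-down lay below the highest input, so the groups overlapped. Enrichment was 0.62 (SE 0.29, FDR 0.173). The Cre+ pull-downs had 22.5, 47.0 and 45.5 and the Cre+ inputs 20.2, 27.6 and 23.6. Cre+ pull-down 1 was within the range of the inputs and the other two pull-downs were above it, and the enrichment of 0.68 (SE 0.53) had an FDR of 0.459.

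Across the complexes, Mtor and Rictor thus had all pull-downs above all inputs in both genotypes, and Rptor in neither. Groups that do not overlap with the pull-down higher were found for 18.2% of all genes in the Cre- libraries and for 15.5% in the Cre+ libraries. This was met by 3 of the 8 members for Cre- (Mtor, Rictor and Tsc2) and by 3 for Cre+ (Mtor, Rictor and Tsc1). The reverse, all pull-downs below all inputs, held for 17.9% of all genes for Cre+, for 18.6% for Cre-, and for 1 member in each, Rheb. Members were judged on counts scaled over all 12 libraries, but the shares of all genes on counts scaled over the 6 libraries of a genotype. Some gaps were narrow, as for Mtor with Cre+ and Rheb with Cre-, so the counts of members may depend on the scale.

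Tsc1 (hamartin) and Tsc2 (tuberin, the GTPase-activating subunit for Rheb) form the TSC complex. Tsc1, on chromosome 2 from 28641228 to 28691167 on the forward strand, had 50.0, 45.6 and 51.8 normalized counts in the Cre- pull-downs and 54.9, 43.1 and 44.0 in the Cre- inputs. These groups overlapped fully, with an enrichment of 0.08 (SE 0.19, 95% interval -0.35 to 0.51, FDR 0.816). For Cre+, Tsc1 had 152, 47.5 and 54.5 in the pull-downs and 42.9, 43.7 and 46.5 in the inputs. The enrichment of 0.94 (SE 0.51, FDR 0.295) was carried by Cre+ pull-down 1, and without that library it was 0.22.

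Tsc2 is on chromosome 17 from 24595816 to 24632630 on the reverse strand, and 7.2% of its exonic bases overlap Pkd1 on the other strand. It had 83.1, 80.2 and 82.1 normalized counts in the Cre- pull-downs and 61.9, 67.9 and 53.2 in the Cre- inputs. The pull-downs were close together, with a coefficient of variation of 1.79%, and all lay above the inputs. Enrichment was 0.45 (SE 0.18, 95% interval 0.06 to 0.83) and the FDR was 0.107, just above the threshold of 0.1. The Cre+ pull-downs of Tsc2 had 31.3, 81.9 and 57.2 and the Cre+ inputs 34.4, 61.0 and 58.5. They overlapped, and enrichment was 0.13 (SE 0.49, FDR 0.897). Scaling by library size alone turned it to -0.28.

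Rheb, the GTPase that activates mTORC1, is on chromosome 5 from 24802823 to 24842624 on the reverse strand, and it was the only member with all pull-downs below all inputs in both genotypes. The Cre- pull-downs had 65.0, 64.5 and 77.6 normalized counts and the Cre- inputs 78.0, 82.2 and 87.2. The gap between the groups was under 1 normalized count, and enrichment was -0.23 (SE 0.17, FDR 0.396). Far more spread was seen in the Cre+ pull-downs, at 6.25, 49.6 and 84.6, against 114, 101 and 116 in the Cre+ inputs. The lowest of these rests on 55 counts, with an exact Poisson 95% interval of 41.4 to 71.6 counts, so the 13.5-fold range among the Cre+ pull-downs was far outside counting error. Pull-downs averaged 46.8 ± 39.3 and inputs 110.2 ± 8.10. The enrichment of -1.25 (SE 0.71, FDR 0.315) was the largest in size of the 8 members. Without Cre+ pull-down 1 it was -0.70 with an FDR of 0.192.

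Akt1, the kinase between PI3K and TSC, is on chromosome 12 from 112653821 to 112674884 on the reverse strand. It had 43.2, 73.9 and 59.7 normalized counts in the Cre- pull-downs and 79.6, 65.2 and 69.1 in the Cre- inputs. The groups overlapped, and enrichment was -0.25 (SE 0.22, FDR 0.481). It was -0.047 without Cre- pull-down 1 and -0.45 without Cre- pull-down 2. With Cre+ it had 68.1, 53.7 and 138 in the pull-downs and 66.9, 65.8 and 66.2 in the inputs. The inputs spread 1.02-fold and the pull-downs 2.57-fold around them, and the enrichment of 0.38 (SE 0.43, FDR 0.619) was -0.10 without Cre+ pull-down 3.

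Rps6kb1 encodes S6 kinase 1, the best known substrate of mTORC1, and is on chromosome 11 from 86498871 to 86544805 on the reverse strand. It had 61.2, 63.6 and 78.1 normalized counts in the Cre- pull-downs and 40.5, 61.4 and 54.1 in the Cre- inputs. The lowest pull-down lay within the range of the inputs, and enrichment was 0.40 (SE 0.21, FDR 0.221). Those of Cre+ were 54.6, 98.6 and 36.2 in the pull-downs and 76.6, 53.8 and 52.3 in the inputs. The pull-downs lay on both sides of the inputs, with an enrichment of 0.04 (SE 0.46, FDR 0.966).

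**Figure D2:**
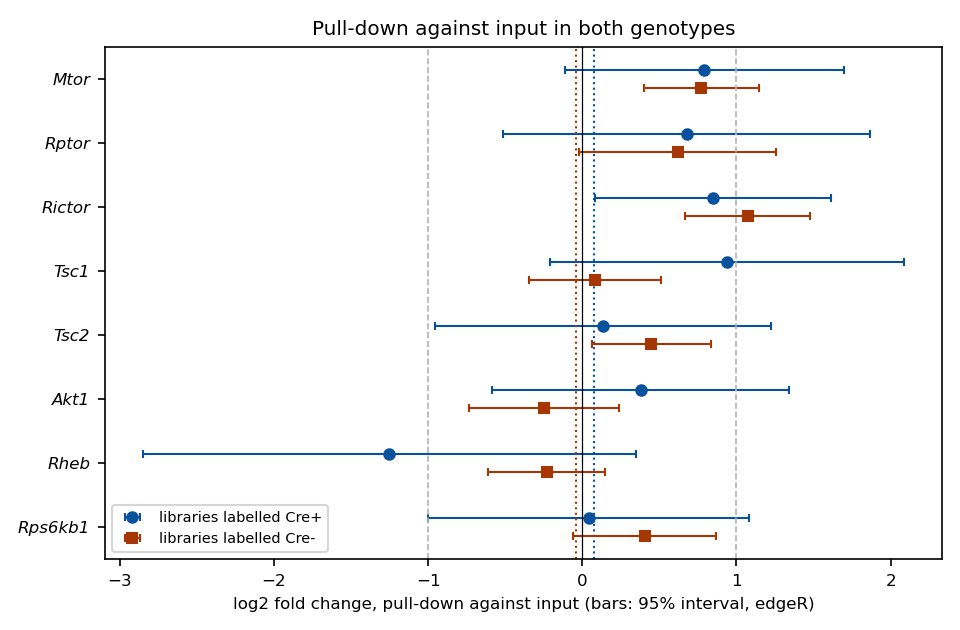
Log2 fold change of pull-down against input (horizontal axis) for each member, with circles for the libraries labelled Cre+ and squares for those labelled Cre-, bars for the 95% interval of edgeR's quasi-likelihood fit, dashed lines at 2-fold and dotted lines at the median of all genes. Mtor and Rictor lie to the right in both genotypes, with intervals above 0 for Rictor in both, and Rheb lies to the left in both, with intervals that include 0.

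Over the 8 members, median enrichment was 0.53 for Cre+ and 0.43 for Cre-, beside a median over all genes tested of 0.08 and -0.04. The value was positive for 7 of 8 members in the Cre+ libraries and for 6 of 8 in the Cre- libraries, against 53.0% and 47.5% of all genes. Scaling by library size alone, without TMM, moved the median of all genes to -0.36 (Cre+) and -0.27 (Cre-), and the genes called higher and lower from 463 and 223 to 195 and 713 in the Cre+ libraries and from 698 and 684 to 433 and 1249 in the Cre- libraries. Upper-quartile scaling gave 247 and 271 in the Cre+ libraries. By library size alone Tsc2, Akt1 and Rps6kb1 turned negative in the Cre+ libraries and Tsc1 in the Cre- libraries. Mtor, Rictor and Rptor remained positive in both genotypes and Rheb negative in both under every alternative run, including each library left out in turn.

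The members differ widely in transcript length, a property that their choice did not use. The length implied by the deposited mean FPKM, relative to the counts, was 9.73 kb for Rictor, 8.49 kb for Mtor, 7.46 kb for Tsc1, 7.13 kb for Rptor, 6.17 kb for Tsc2, 5.04 kb for Rps6kb1, 2.79 kb for Akt1 and 1.44 kb for Rheb. All genes tested were split by this length into 4 classes of equal size. For Cre+ the median enrichment was -0.79 in the shortest class, -0.21 and 0.19 in the middle classes and 0.90 in the longest class, where 90.5% of genes were positive. For Cre- the medians of the 4 classes were -0.37, -0.12, 0.019 and 0.27, with 69.5% of genes positive in the longest class. Enrichment over all genes thus went up with this implied length in both genotypes. The implied length was computed from counts of the same libraries, so it is not an independent measure of transcript length. For some genes it differed between the tables, as for Foxo3 (5.23 kb for Cre+ and 2.79 kb for Cre-). How far this shaped the rise was not tested. The longest class holds 6 members in both genotypes, Akt1 is in the second and Rheb in the shortest.

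Each member was then set beside the median of its own length class. For Cre+, 5 of the 6 long members (Mtor 0.79, Rptor 0.68, Rictor 0.85, Tsc2 0.13 and Rps6kb1 0.04) were less enriched than the 0.90 of the longest class, and Tsc1 (0.94) was above it. For Cre-, 5 of the 6 (Mtor 0.77, Rptor 0.62, Rictor 1.07, Tsc2 0.45 and Rps6kb1 0.40) were above the 0.27 of that class, and Tsc1 (0.08) was below it. Rheb was below the median of the shortest class for Cre+ (-1.25 against -0.79) and above it for Cre- (-0.23 against -0.37). Akt1 was above the median of the second class for Cre+ (0.38 against -0.21) and below it for Cre- (-0.25 against -0.12). These are descriptions, and the part of length in the members' values was not tested.

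**Figure D3:**
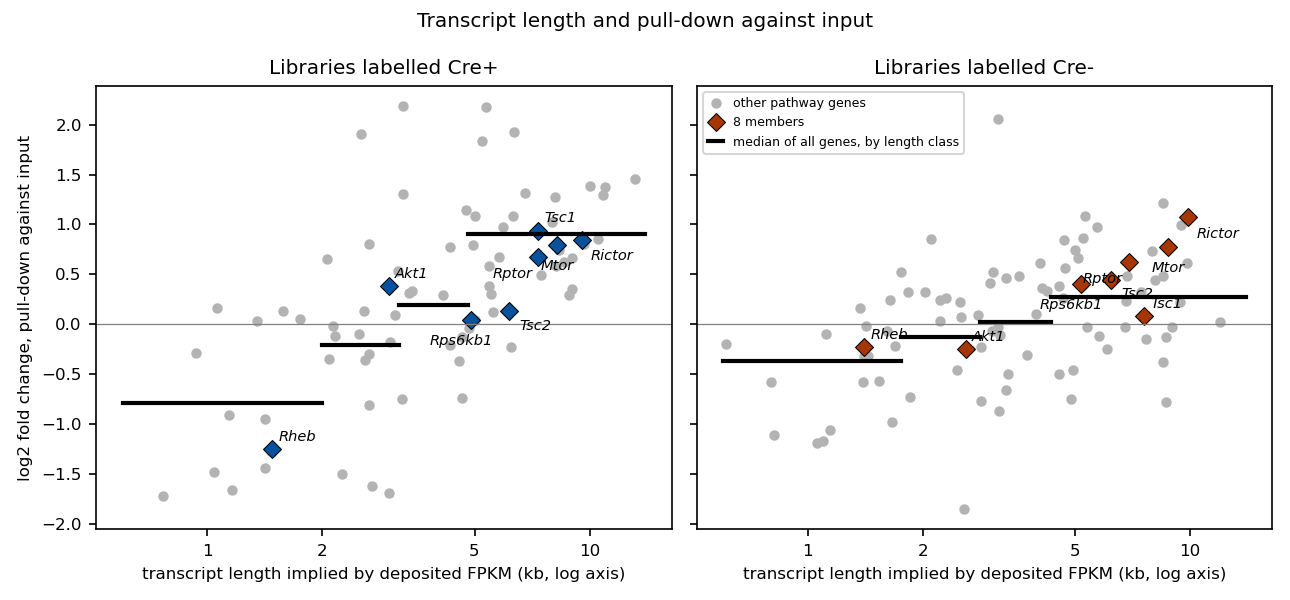
Log2 fold change of pull-down against input (vertical axis) against the transcript length implied by the deposited FPKM (horizontal axis, kb, log axis) in the libraries labelled Cre+ and Cre-. Diamonds are the 8 members, grey points other genes of the pathway list and black lines the median of all genes tested in each length class, which rises from -0.79 to 0.90 (Cre+) and from -0.37 to 0.27 (Cre-); the outermost lines are drawn only within the axis range.

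Whether the enrichment of a member differed between the genotypes was tested as the difference of both enrichments, Cre+ minus Cre-, in 1 fit of the 12 libraries. None of the 8 members was called or had an unadjusted p below 0.05 in edgeR, DESeq2 called none, and 4.22% of all genes were called. The difference was 0.05 for Mtor (95% interval -0.86 to 0.96), 0.09 for Rptor (-1.13 to 1.31) and -0.20 for Rictor (-0.96 to 0.56). It ranged from -0.98 for Rheb (-2.69 to 0.73, FDR 0.517) to 0.88 for Tsc1 (-0.30 to 2.06, FDR 0.396). The intervals of Mtor and Rictor stay within 1 log2 unit of 0 on both sides, and those of the other 6 members reach past it on at least 1 side. Without Cre+ pull-down 1 the difference of Tsc1 was 0.15 and that of Rheb -0.46.

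The pull-downs of both genotypes were also compared directly, and no member was called or had an unadjusted p below 0.05 in edgeR, with 2.68% of all genes called. DESeq2 and the exact test called no member either. The groups of pull-downs overlapped for all 8 members, whereas 28.5% of all genes had pull-down groups that did not overlap. The log2 differences, Cre+ minus Cre-, ran from -0.60 for Rheb to 0.77 for Tsc1. Without Cre+ pull-down 1 these differences were -0.069 for Rheb and 0.025 for Tsc1. In the inputs, which hold the total RNA of the cultures, edgeR called no gene at all (185 genes of all tested had an unadjusted p below 0.05, and DESeq2 and edgeR's exact test called 1 gene each). Among the members, Rheb was the one with groups that did not overlap, with 114, 101 and 116 in the Cre+ inputs against 78.0, 82.2 and 87.2 in the Cre- inputs, where 7.79% of all genes had input groups without overlap. Its log2 difference was 0.42 (SE 0.16, unadjusted p = 0.0280 in edgeR, FDR 0.998). The other 7 members differed by -0.26 to 0.23 on the log2 scale between the inputs.

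Levels of different genes were compared per kb of the implied length. Rheb was highest in the Cre- inputs at 57.1 ± 3.18 normalized counts per kb (SD, n = 3), followed by Akt1 at 25.6 ± 2.66, and both were apart from the next gene in every library. Mtor (10.9), Rps6kb1 (10.3) and Tsc2 (9.89) followed with overlapping ranges, then Rictor (6.94) and Tsc1 (6.34), again overlapping, and Rptor was lowest at 3.71 ± 1.21. The Cre+ inputs gave Rheb 76.4 ± 5.61 and Akt1 23.8 ± 0.19 at the top and Rptor 3.34 ± 0.52 at the bottom. Among the 5 genes between them, neighbours in the order overlapped, but not every pair did. Rheb also led in the Cre- pull-downs at 47.8 ± 5.15, and Mtor (18.2) came close to Akt1 (21.1) with overlapping ranges. By its mean, Rictor (14.4) moved from the sixth to the fourth place, with a range that overlapped those of Rps6kb1 and Tsc2. No gene was separated from the next one in the order of the Cre+ pull-downs, where Rheb alone ranged from 4.33 to 58.7 per kb.

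Ratios of members within a library do not depend on how libraries are scaled. Rheb per kb was 4.84 to 5.70 times Mtor in the Cre- inputs and 2.14 to 3.08 times in the Cre- pull-downs, and 7.08 to 11.5 times in the Cre+ inputs and 0.182 to 5.50 times in the Cre+ pull-downs. The ratio was thus lower in every pull-down than in every input of its genotype. Rictor per kb was 1.55 to 2.61 times Rptor in the Cre- inputs and 2.13 to 3.34 times in the Cre- pull-downs, which overlap. The Cre+ inputs had 2.08 to 2.17 and the Cre+ pull-downs 1.59 to 4.93. Tsc1 per kb was 0.47 to 0.52 times Tsc2 in the Cre- pull-downs and 0.52 to 0.73 times in the Cre- inputs, and it was 4.03 times in Cre+ pull-down 1 against 0.48 and 0.79 in the other Cre+ pull-downs.

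The profile of each member over the 12 libraries was compared with those of other genes in both tables, as the root mean square (RMS) difference of log2 normalized counts after centring each profile. Genes were compared with a member only if their own SD over the libraries was at least the member's divided by 1.5, which left 3807 genes for Rheb and 8125 to 8783 for the other members. Among the members, Mtor and Rictor were the most alike pair, with an RMS difference of 0.27, and Tsc1 and Rheb the least, with 1.48. The gene most like Mtor was Ubr3 (0.18), which encodes a large ubiquitin ligase. For Rptor it was Kif3c (0.18), for Tsc1 C2cd2l (0.17), for Tsc2 Vcpip1 (0.17), for Akt1 Dagla (0.20), for Rheb Mpp6 (0.22) and for Rps6kb1 Zfp800 (0.23). These are descriptions over 12 libraries that share 4 groups.

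The rest of the pathway was read from a list of 100 genes in 7 roles, of which 99 are in at least 1 table and 91 are not members. For Cre+, 72 of the 91 were tested and 6 were called, all higher in the pull-down (among them Igf1r, Ntrk3, Pik3ca, Ulk2 and Wdr59), where 5.17% of all genes were called higher and 2.49% lower. For Cre-, 81 were tested, and 3 were called higher (Depdc5, Lpin1 and Ntrk3) and 5 lower (among them Akt1s1, Eif4ebp1, Lamtor1 and Lamtor5), where 6.06% of all genes were called higher and 5.93% lower. With no fold limit, 12 of the 81 passed the FDR threshold with the pull-down higher and 10 with the pull-down lower, against 13.0% and 11.1% of all genes. Median enrichment of the genes tested was 0.30 for Cre+ and 0.036 for Cre-. Without any 1 of the 3 Cre+ inputs edgeR called no gene of the Cre+ table (1154 to 1419 genes had an unadjusted p below 0.05), and without Cre+ pull-down 1 it called 12 genes of the list. Among the 8 Cre- calls, Depdc5, Lpin1, Ntrk3 and Lamtor5 had an FDR below 0.1 without any 1 library, while Lamtor1 lost it without Cre- input 1 (0.122) or Cre- pull-down 2 (0.106), and Eif4ebp1 without Cre- input 2 (0.123) or Cre- pull-down 3 (0.118). When all 12 libraries shared 1 fit, Depdc5 and Ntrk3 had a Cre- FDR below 0.1, and Akt1s1, Deptor, Lamtor1, Lamtor5, Seh1l, Wdr59, Pik3ca, Prkaa2, Eif4ebp1, Eif4ebp2, Lpin1 and Gsk3b did not (0.101 to 0.654).

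**Figure D4:**
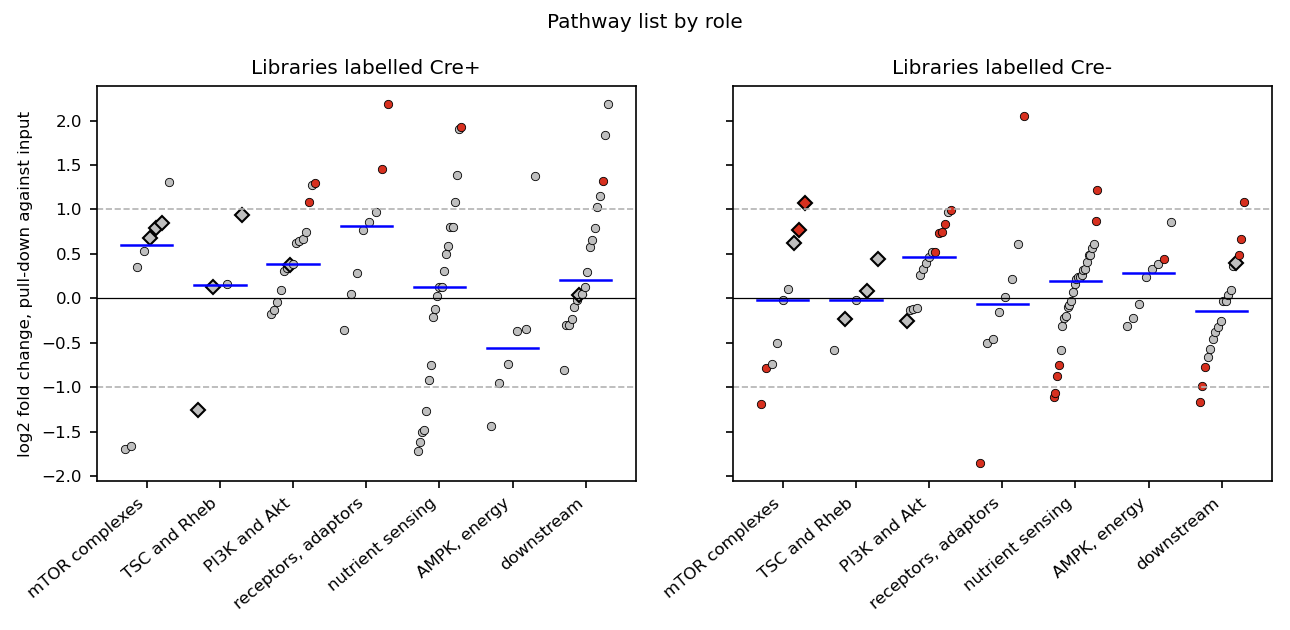
Log2 fold change of pull-down against input (vertical axis) for the tested genes of the pathway list by role (horizontal axis), in the libraries labelled Cre+ and Cre-. Diamonds are members, circles other genes, red marks an FDR below 0.1, blue lines are medians and dashed lines mark 2-fold; red points lie on 1 side in the Cre+ libraries and on both sides in the Cre- libraries.

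In PI3K signalling, Pik3ca, the catalytic subunit p110 alpha, had 180, 206 and 364 normalized counts in the Cre+ pull-downs against 76.5, 116 and 112 in the inputs, and 146, 192 and 213 in the Cre- pull-downs against 71.8, 91.4 and 118 in the inputs. No pull-down overlapped the inputs of its genotype. Enrichment was 1.29 (SE 0.36, FDR 0.0870) with Cre+ and 0.997 (SE 0.22, FDR 0.0102) with Cre-, just under the 2-fold limit there. With a library left out, the Cre+ value was 0.95 to 1.51, and its FDR stayed below 0.1 in 2 of 6 fits (up to 0.332). Of the 14 tested genes of this role other than Akt1, 11 were positive in each genotype and 5 passed the FDR threshold in the Cre- libraries, all with the pull-down higher (Pik3ca, Pik3cb, Pik3r3, Pdpk1 and Phlpp2), beside 53.0% (Cre+) and 47.5% (Cre-) of all genes positive and 13.0% past the threshold with the pull-down higher for Cre-. Of these 14 genes, 9 (Cre+) and 10 (Cre-) are in the longest length class, where 90.5% and 69.5% of all genes were positive. Akt2, named here only as a paralog of Akt1, had enrichments of -0.18 (Cre+) and -0.10 (Cre-), neither past the threshold.

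Among receptors, Igf1r, the receptor of insulin-like growth factor 1, was the only gene of the list whose enrichment was called different between the genotypes. It had 525, 390 and 509 normalized counts in the Cre+ pull-downs and 134, 211 and 172 in the Cre+ inputs, against 168, 200.4 and 170.2 in the Cre- pull-downs and 147, 207 and 186 in the Cre- inputs. The Cre+ pull-downs stood above the other 9 libraries. Enrichment was 1.46 (SE 0.28, FDR 0.0434) with Cre+ and 0.020 (SE 0.17, FDR 0.953) with Cre-, and the difference of 1.47 (SE 0.32) had an FDR of 0.0415. That call was lost without Cre+ input 3, Cre- input 2, Cre- input 3 or Cre- pull-down 3 (FDR 0.107 to 0.154), with the difference between 1.35 and 1.46. Ntrk3 (TrkC, the neurotrophin-3 receptor of proprioceptive neurons, and itself one of the proprioceptor markers) was higher in the pull-down in both genotypes, with enrichments of 2.19 (FDR 0.0269) and 2.05 (FDR 0.000118). It had 270 to 349 normalized counts in the Cre+ pull-downs and 261 to 325 in the Cre- pull-downs, against 51.8 to 89.2 in the inputs.

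Around the complexes, 5 of the 6 tested genes of this role that are no members had negative enrichments in the Cre- libraries (median -0.61). Of these, 2 (Akt1s1 and Deptor) passed the FDR threshold. Among all genes for Cre-, 47.5% were positive and 11.1% passed the threshold with the pull-down lower. Of the 6 genes, 1 (Deptor) is in the longest length class. Akt1s1 is in the shortest, where the median enrichment of all genes was -0.37 for Cre-. Mlst8, a core subunit of both complexes named after its values were seen, had -0.50 (FDR 0.387). Akt1s1 (PRAS40, an inhibitor of mTORC1) had 3.47, 4.38 and 2.38 normalized counts in the pull-downs and 7.84, 8.10 and 7.86 in the inputs, an enrichment of -1.19 (SE 0.42, FDR 0.0759), and of the 6 fits that left out a library only the one without Cre- pull-down 2 kept its FDR below 0.1 (range 0.0989 to 0.197). Deptor, an inhibitor of both complexes, had 187, 226 and 197 in the pull-downs and 273, 421 and 369 in the inputs, an enrichment of -0.78 (SE 0.18, FDR 0.0152), and it passed the FDR threshold in all 6 of those fits but not with all 12 libraries in 1 fit (0.353). With Cre+, Akt1s1 had an enrichment of -1.66 (FDR 0.241) and Deptor one of 0.36 (FDR 0.682). Mlst8 had -1.69 with Cre+, where all its pull-downs (2.62 to 3.35 normalized counts) lay below all its inputs (7.61 to 11.3). None of the 5 tested genes of this role that are no members passed the FDR threshold in the Cre+ libraries, beside 7.98% of all genes. Tbc1d7, the third TSC subunit and the gene of its role with the highest mean normalized count among those that are no members, had enrichments of 0.17 (Cre+) and -0.015 (Cre-), neither past the threshold. Its Cre+ pull-downs had 84.1, 7.60 and 4.96 normalized counts against 42.6, 20.8 and 23.7 in the inputs, so that Cre+ pull-down 1 lay above every input and the other two below every input.

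Among the nutrient-sensing genes, which place mTORC1 on the lysosome, 2 of 26 tested genes passed the FDR threshold with the pull-down higher and 4 with the pull-down lower in the Cre- libraries, beside 13.0% and 11.1% of all genes. In the Cre+ libraries 1 of 21 passed it, with the pull-down higher, beside 7.98% of all genes in either direction. Depdc5, a subunit of the GATOR1 complex that inhibits mTORC1, had 149, 211 and 140.5 normalized counts in the pull-downs and 67.8, 82.4 and 69.1 in the inputs, an enrichment of 1.22 (SE 0.20, FDR 0.00239). Wdr59, of the GATOR2 complex, was positive in both genotypes, at 1.93 (FDR 0.0705) with Cre+ and 0.87 (FDR 0.0793) with Cre-, but with a library left out its FDR stayed below 0.1 in 2 of 6 fits in each genotype (up to 0.295 and 0.210). The Ragulator subunits Lamtor1 and Lamtor5, which anchor the Rag GTPases, were lower in the Cre- pull-downs, with enrichments of -1.06 (FDR 0.0312) and -1.11 (FDR 0.0217). Lamtor5 had 16.6, 22.2 and 12.1 in the Cre- pull-downs against 43.7, 29.3 and 39.1 in the inputs. With Cre+, these subunits had enrichments of -1.48 (FDR 0.141) and -1.72 (FDR 0.132), with all pull-downs below all inputs but no call. Lamtor1 and Lamtor5 are in the shortest length class, where the median enrichment of all genes was -0.37 (Cre-) and -0.79 (Cre+). Depdc5 and Wdr59 are in the longest class, with medians of 0.27 (Cre-) and 0.90 (Cre+). Seh1l, a nucleoporin shared with GATOR2, had an enrichment of -0.87 (FDR 0.0204) with Cre-.

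In the output role, not all of whose genes are downstream of mTORC1, 17 tested genes are no members. For Cre-, 3 of the 17 passed the FDR threshold with the pull-down higher (Ulk1, Lpin1 and Gsk3b), beside 13.0% of all genes. Another 3 passed it with the pull-down lower (Eif4ebp1, Eif4ebp2 and Eif4e), beside 11.1% of all genes. For Cre+, 1 of 17 passed it with the pull-down higher (Ulk2), beside 7.98% of all genes in either direction. Eif4ebp1 (4E-BP1, a repressor of cap-dependent translation) had 5.04, 9.09 and 5.27 normalized counts in the Cre- pull-downs and 14.6, 16.0 and 13.7 in the Cre- inputs, an enrichment of -1.17 (SE 0.34, FDR 0.0400). Its paralog Eif4ebp2 had an enrichment of -0.98 (FDR 0.0583, and below 0.1 in 3 of 6 fits with a library left out, up to 0.232), under the 2-fold limit. Eif4e, the cap-binding factor that both repress, named after its values were seen, was also lower in the Cre- pull-downs, at -0.77 (FDR 0.00573), and had -0.80 (FDR 0.117) with Cre+. For Cre+ the groups overlapped for Eif4ebp1 and Eif4ebp2, with enrichments of -0.29 (FDR 0.811) and 0.052 (FDR 0.964). Eif4ebp1 and Eif4ebp2 are in the shortest length class, where the median enrichment of all genes was -0.37 (Cre-) and -0.79 (Cre+), and Eif4e is in a middle class. Of the genes named next, Lpin1, Ulk2 and Gsk3b are in the longest class, with medians of 0.27 (Cre-) and 0.90 (Cre+). Lpin1, a lipid phosphatase regulated by mTORC1, had 95.3, 92.8 and 80.3 in the Cre- pull-downs against 53.1, 38.5 and 37.0 in the inputs, an enrichment of 1.09 (FDR 0.00462). Ulk2, an autophagy kinase, was called with Cre+ at 1.32 (FDR 0.0920, and below 0.1 in 1 of 6 fits with a library left out, up to 0.314) and had -0.024 (FDR 0.946) with Cre-. Gsk3b, a kinase inhibited by Akt, had the highest mean normalized count of this role, with 2082 to 2845 in the Cre- pull-downs against 1623 to 1906 in the inputs, an enrichment of 0.49 (FDR 0.0446, and below 0.1 in 2 of 6 fits with a library left out, up to 0.155). Rps6kb2, named only as the paralog of Rps6kb1, had enrichments of 0.13 (Cre+) and -0.32 (Cre-), neither past the threshold. Rps6, the ribosomal protein that gives S6 kinase its name, was listed only in the table of the Cre- libraries and has many processed pseudogenes, so its counts of uniquely mapped reads are uncertain and it is not given here.

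In the energy-sensing role, with the AMPK subunits and Stk11 (LKB1, the kinase upstream of AMPK), 1 of 6 tested genes was positive in the Cre+ libraries and 5 of 8 in the Cre- libraries, beside 53.0% and 47.5% of all genes. The positive one was Prkaa2, a catalytic AMPK subunit, with 205, 146 and 469 normalized counts in the Cre+ pull-downs against 75.8, 114 and 124 in the inputs. All its pull-downs lay above its inputs, and its enrichment of 1.38 had an FDR of 0.116. The Cre- value was 0.44 (FDR 0.0800), the only gene of this role past the FDR threshold in either genotype, and its FDR stayed below 0.1 in 1 of 6 fits with a library left out (up to 0.235) and was 0.640 with all 12 libraries in 1 fit. Median enrichment of the role was -0.55 for Cre+ and 0.29 for Cre-, beside 0.08 and -0.04 over all genes tested. For Cre-, 13.0% of all genes passed the FDR threshold with the pull-down higher. Of the genes tested in this role, 1 of 6 (Cre+) and 2 of 8 (Cre-) are in the longest length class.

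**Figure D5:**
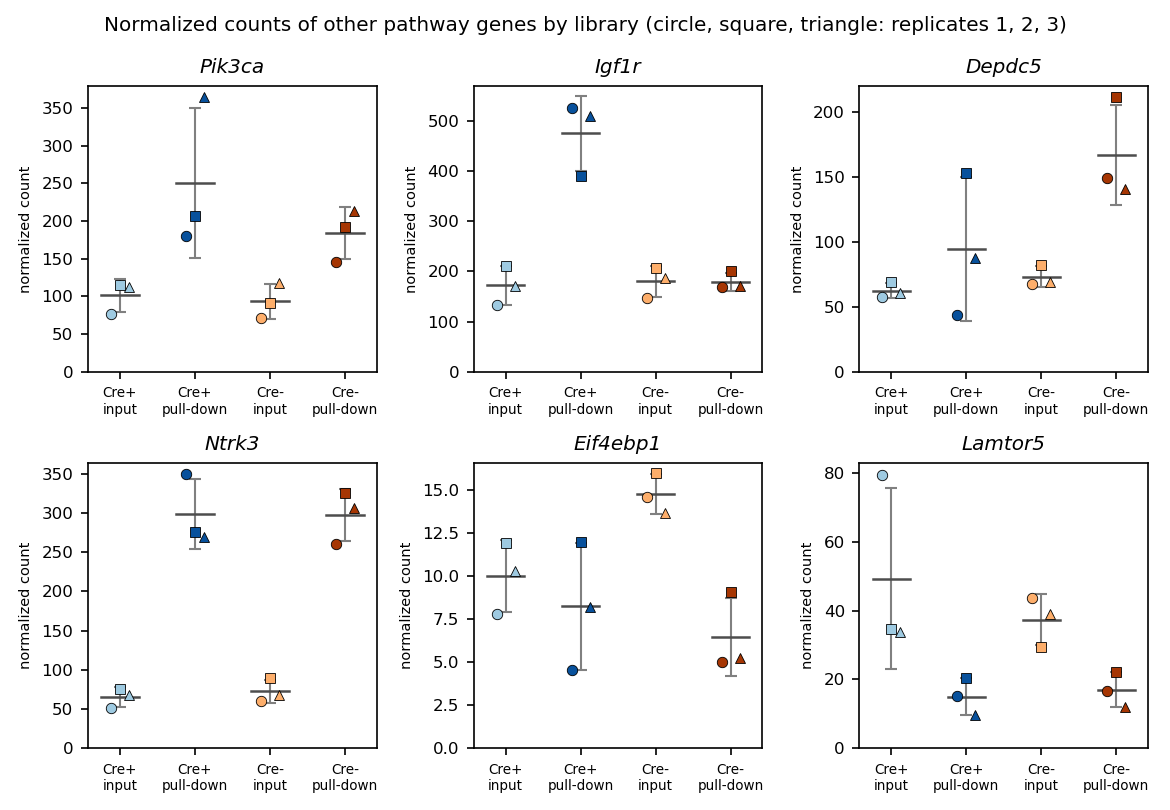
Normalized counts (vertical axis, counts per 1000000 after TMM scaling) of 6 further genes of the pathway list in the 12 libraries, by group (horizontal axis), with the mean as a line and the SD as a bar (n = 3). Igf1r is high only in the Cre+ pull-downs (390 to 525), Ntrk3 is high in both pull-down groups, and Eif4ebp1 and Lamtor5 are lower in the Cre- pull-downs than in the Cre- inputs.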

How the data were processed

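Reads had been mapped to mm10 by the authors (STAR) and uniquely mapped fragments counted per refSeq gene (HTSeq). They deposited 1 table per genotype with the count of each gene in each library, whole numbers that are not normalized, and the mean FPKM per gene, also computed by the authors. The authors' fold changes, p-values and FDR and 18 columns of normalized counts and ratios were not used. Columns holding the Cre+ pull-downs are named like the Cre- pull-down titles, and they were assigned as a group because the sample labels name that table, so their numbers only tell libraries apart. The labels name each sample as a pool of 5 mice, and 8886308 to 18633365 counts per library set the precision.

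edgeR 4.0.16 (TMM, glmQLFit, glmQLFTest, R 4.3.3) tested genes with a mean FPKM above 1, 8947 in the Cre+ and 11526 in the Cre- table, and 9006 where both tables were used, adjusting over all of them. Fold changes within a genotype come from the TMM factors of its own 6 libraries, printed normalized counts from those of all 12. The standard error is the log2 fold change divided by the root of F. Called means FDR below 0.1 and 2-fold. Alternatives were DESeq2 1.42.0, the exact test, other scalings and filters, an FDR of 0.05, no fold limit, 1 fit of 12 libraries, a replicate block (for Cre+ by column number, added after the data were seen) and each library left out. Named are the 8 members, of the other pathway genes those called in a genotype or in the difference and, per role, the one with the highest mean and the largest change under 2-fold past the FDR threshold, and per member the gene with the most similar profile. Akt2 and Rps6kb2 were added as paralogs, and some genes that the rule names are not reported here. Implied length is mean counts per 1000000 over mean FPKM. The members and lists were chosen with earlier results of these data known. Coordinates and exon overlaps are from GENCODE M21 (GRCm38). The scripts were tested on simulated data, and figures drawn with matplotlib 3.10.9.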

Additional observations from a re-analysis of the deposited data

Results flagged for a closer look

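The enrichment of Igf1r differed between the genotypes by a test of the difference itself. Its log2 fold change, pull-down over input, was larger by 1.47 (standard error 0.32, FDR = 0.0415, edgeR) in the libraries labelled Cre+, where all 3 pull-downs lay above all 3 inputs, while in the libraries labelled Cre- the groups overlapped. The FDR of this difference stayed below 0.1 in 8 of 12 fits with a library left out (up to 0.154). It was 0.116 with the replicate block by column number. The summed endothelial markers had a median of 137 in the Cre+ pull-downs (105 to 461) and 19.3 in the Cre- pull-downs (13.1 to 109.6), with overlapping ranges. Igf1r is also in the longest length class, where the median enrichment of all genes was 0.90 for Cre+ and 0.27 for Cre-. The part of these markers and of length in the difference of Igf1r was not tested. No such difference was found for a member. Groups of 3 libraries were too small for a test of single outlying libraries.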

How the results depend on the processing

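The number of members called did not change in the Cre+ libraries (0), for the difference (0), the pull-downs (0) or the inputs (0) under any alternative run. In the Cre- libraries 1 member was called, 0 with scaling by library size alone, 2 with no fold limit, and 0 to 1 with each library left out (0 without Cre- input 1 or Cre- input 3). Of the other pathway genes, 6 were called in the Cre+ libraries, 14 by DESeq2, 11 by the exact test, 20 with all 12 libraries in 1 fit, 2 at an FDR of 0.05, and 0 to 12 with a library left out. In the Cre- libraries 8 were called, 3 with all 12 libraries in 1 fit, 22 with no fold limit, and 6 to 10 with a library left out. For the difference 1 was called, 6 by DESeq2, 2 with library size alone, and 0 to 12 with a library left out. Between the pull-downs 1 was called, 10 by DESeq2, 5 by the exact test, and 0 to 10 with a library left out. The cause of these changes was not tested, except that a stricter threshold can only remove calls and no fold limit only add them.

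Some log2 fold changes that had not passed the threshold turned their sign. In the Cre+ libraries, upper-quartile scaling gave -0.025 for Tsc2 and -0.12 for Rps6kb1, and library size alone -0.28 for Tsc2, -0.064 for Akt1 and -0.38 for Rps6kb1. In the Cre- libraries, library size alone gave -0.15 for Tsc1. For the difference, upper-quartile scaling gave -0.16 for Mtor and -0.058 for Rptor, and library size alone -0.22 for Mtor and -0.12 for Rptor. With a library left out, the Cre+ values ran from -0.19 to 0.46 for Tsc2, -0.10 to 0.66 for Akt1 and -0.40 to 0.35 for Rps6kb1. The differences ran from -0.38 to 0.26 for Mtor, -0.13 to 0.36 for Rptor and -0.64 to 0.014 for Tsc2, the pull-downs from -0.24 to 0.18 for Rptor and -0.58 to 0.15 for Rps6kb1, and the inputs from -0.39 to 0.062 for Rptor, -0.086 to 0.21 for Rictor and -0.16 to 0.030 for Tsc1.

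In the Cre- libraries same-numbered pull-downs and inputs correlated in their deviations at 0.075, 0.034 and 0.14. These correlations were weak, but each pull-down correlated best with the input of its own number. The main fit used no replicate block. With the numbers as a replicate block, 1 member was called and 689 genes of the table were called higher and 757 lower, against 698 and 684. The Cre+ columns carry numbers that could not be tied to the labelled samples, and same-numbered Cre+ columns correlated in their deviations at -0.0085, -0.0030 and 0.012. A replicate block by these column numbers, within genotype and chosen after seeing the data, called 0 members and 2 other pathway genes in the Cre+ libraries (217 genes of the table higher and 53 lower, against 463 and 223) and 0 members and 0 other pathway genes for the difference, where Igf1r had 1.47 with an FDR of 0.116. It turned the sign of Rps6kb1 in the Cre+ libraries (-0.063) and of the differences of Mtor (-0.021) and Rptor (-0.0026). With pooled cultures as replicates and 3 per group, p-values measure the spread between these samples.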
